A study of Danio rerio with 16 samples.

Results

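Retinoic acid is made from vitamin A and broken down again by a small set of enzymes, and 10 zebrafish genes of this pathway were examined in whole embryos exposed to 2,3,7,8-tetrachlorodibenzo-p-dioxin (TCDD). They were chosen by symbol for what they encode, with earlier results of these data known. Of them stra6 stands for retinol uptake, lrata for storage, and rdh10a, aldh1a2 and aldh1a3 for synthesis. The genes dhrs3a and dhrs3b stand for the reverse step, and cyp26a1, cyp26b1 and cyp26c1 for breakdown. Of the 10 genes, 7 were matched to 1 row each of the 32266 gene rows of the count table. These are lrata (ENSDARG00000037278, named in the authors' deposited table), stra6 (ENSDARG00000051874), aldh1a2 (ENSDARG00000053493), aldh1a3 (ENSDARG00000076933), cyp26a1 (ENSDARG00000033999), cyp26b1 (ENSDARG00000077121) and cyp26c1 (ENSDARG00000056029). The gene table gives the name DHRS3 to a pair of rows and the name RDH10 to another pair, without the letter that tells zebrafish paralogs apart. These rows are therefore called by name and identifier. The pair named DHRS3 holds dhrs3a and dhrs3b, in an order not told, and 1 of the pair named RDH10 is rdh10a. In all, 11 rows are described, and all 11 passed the filter on low counts.

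In vertebrate embryos, retinol bound to a carrier protein enters cells through the receptor STRA6, and LRAT esterifies it into a storage form. Retinol dehydrogenases such as RDH10 oxidise retinol to retinal, DHRS3 reduces retinal back to retinol, and the ALDH1A enzymes oxidise retinal to retinoic acid. The CYP26 enzymes degrade retinoic acid, so that local levels depend on where synthesis and breakdown genes are expressed. Retinoic acid binds nuclear receptors and patterns the hindbrain, somites, eye, heart and fins. TCDD is a persistent ligand of the aryl hydrocarbon receptor (AHR), a transcription factor, and in rodents it is known to lower vitamin A stores of the liver.

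The 16 samples were pools of 20 whole embryos of the Tropical 5D line, collected at 48 h post fertilization (hpf), with 4 biological replicates in each of 4 groups. Control morphants in DMSO (ConMO_DMSO) and in TCDD (ConMO_TCDD) carried a control morpholino, an antisense oligomer. The other two groups, slincRMO_DMSO and slincRMO_TCDD, carried one that targets the long noncoding RNA slincR. From about 6 hpf embryos spent 1 h in 1 ng/mL TCDD or in the vehicle, 0.1% dimethyl sulfoxide (DMSO). Every group carried a morpholino, which acts transiently and leaves the gene itself intact, and the level of slincR is not given here because no row was paired with it.

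Each library held 14977267 to 23142081 reads counted in genes. Markers of neurons (ELAVL3), skin (krt4) and heart (MYL7) were present in all 16 libraries, at 654 CPM or more, 20800 CPM or more and 8.20 CPM or more. CPM is the read count scaled to a common library size. They come from a check list of 9 marker genes, of which 8 were matched, to 11 rows. Of these rows 9 passed the filter on low counts, and the muscle gene mylpfa had no row. The AHR target cyp1a checks the TCDD label, with 12.7 ± 1.89 CPM in ConMO_DMSO and 1949 ± 85.4 in ConMO_TCDD (SD, n = 4), and 11.1 ± 1.29 and 1850 ± 203 in the slincR groups. In a principal component analysis ConMO_DMSO 4 scored −63.4 on component 1 and the remaining 15 libraries −17.7 to 19.4, and leaving it out changed 1 call among the 11 rows, that of cyp26b1 in the averaged TCDD response. Levels are not scaled by transcript length, so they are compared between groups of samples and not between genes.

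Across the 11 rows, lrata was lower with TCDD in both kinds of morphant, at 9.75 against 16.1 CPM in control and 10.2 against 17.2 CPM in slincR morphants. Averaged over both morphants, aldh1a3 was also lower and cyp26b1 higher, while the other 8 rows did not pass the test. The cyp26b1 call, at an adjusted p of 0.0498 by edgeR, was lost under 15 of 21 alternative settings. None of the 11 rows passed for the slincR morpholino by the main test. The plot of levels by group shows all 16 samples for each row.

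**Figure D1:**
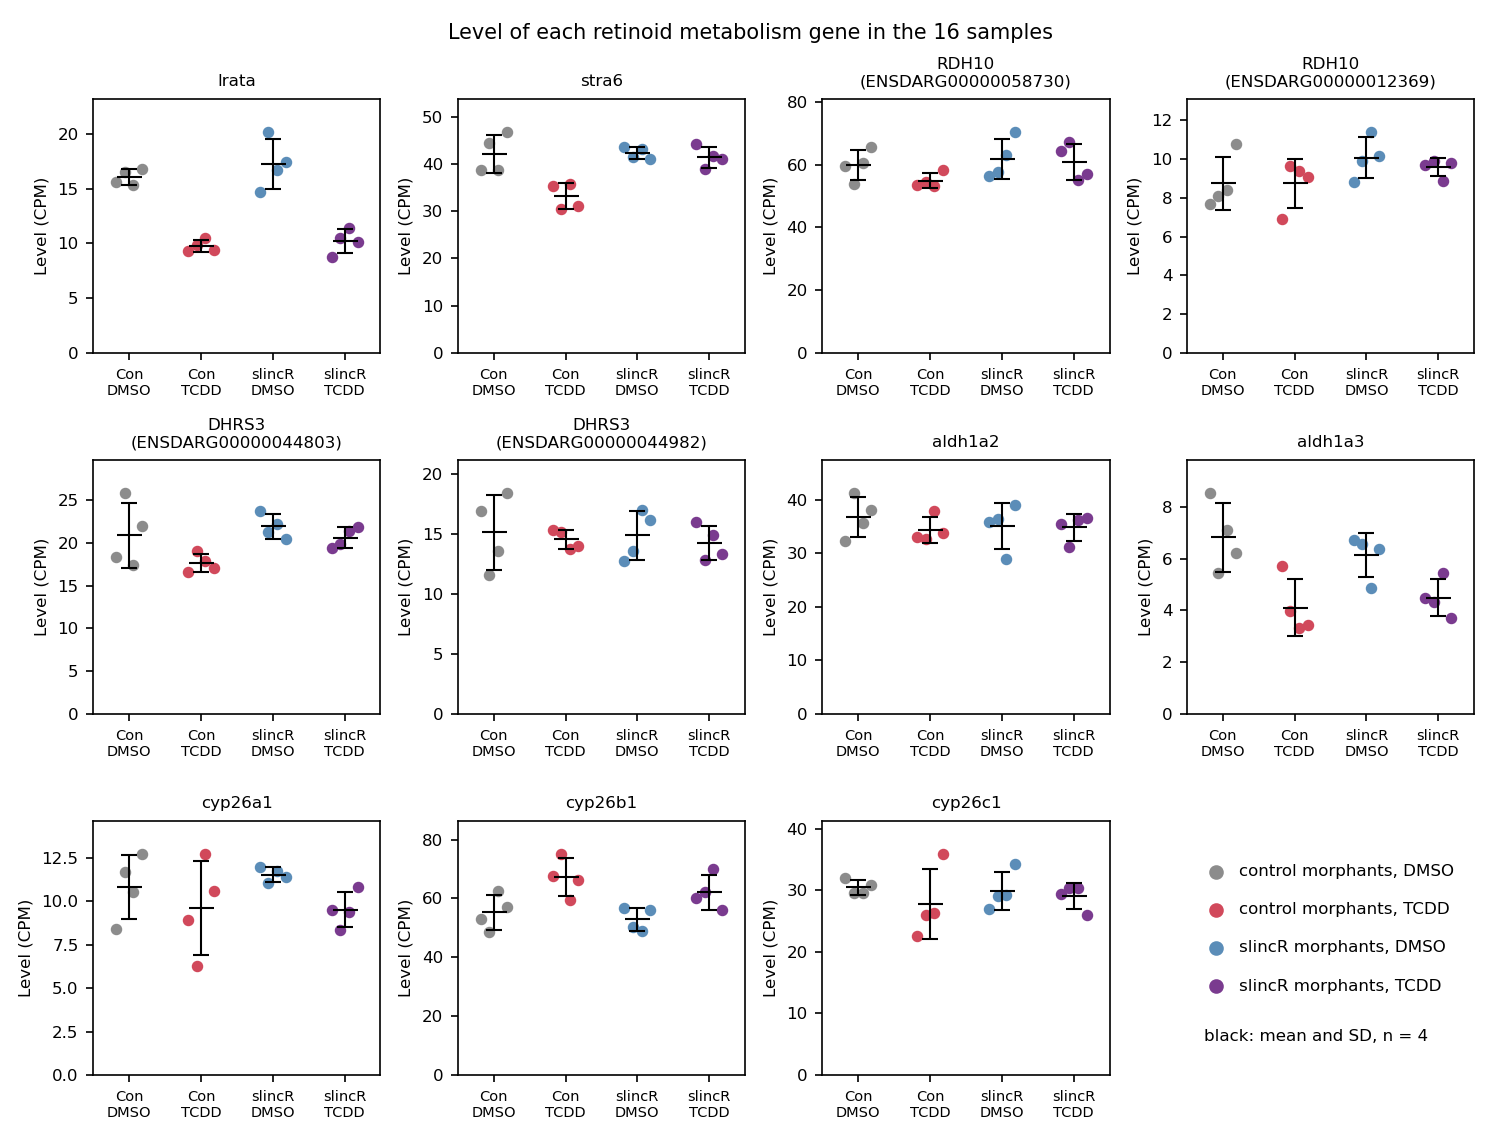
Level of each row in CPM (vertical axis, starting at 0) in the 4 samples of each group (points), with the mean and SD in black. For lrata the TCDD samples lie between 8.78 and 11.4 CPM and the DMSO samples between 14.7 and 20.2 CPM.

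The storage gene lrata encodes lecithin retinol acyltransferase, which makes retinyl esters. In control morphants it measured 15.6, 16.5, 15.3 and 16.8 CPM in DMSO and 9.30, 9.83, 10.5 and 9.36 CPM with TCDD. In slincR morphants it measured 14.7, 20.2, 16.7 and 17.4 CPM in DMSO and 8.78, 10.5, 11.4 and 10.2 CPM with TCDD. Every TCDD sample lay below every DMSO sample, with no overlap in either kind of morphant, and each sample rested on 137 to 408 reads. The group means were 16.1 ± 0.724 and 9.75 ± 0.555 CPM in control morphants and 17.2 ± 2.27 and 10.2 ± 1.09 CPM in slincR morphants (SD, n = 4).

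In control morphants, lrata fell by 39.3%, a log2 fold change of −0.72 ± 0.12 (SE), with a 95% interval from −0.97 to −0.47 (edgeR quasi-likelihood test, Benjamini-Hochberg adjusted p = 0.00169). It was the sole row called of 11, where 0.620% of all 20630 genes tested were called in either direction and 0.150% were called lower. In slincR morphants it fell by 40.7%, a log2 fold change of −0.75 ± 0.12 (edgeR, adjusted p = 0.000852), again as the sole row called, against 0.383% of all genes in either direction and 0.0727% lower. The 2 contrasts compare separate libraries, but their spread was estimated from all 16 libraries together. The difference between both responses was −0.03 ± 0.17 on the log2 scale, with an interval from −0.38 to 0.32 (edgeR, adjusted p = 1). Averaged over both, the log2 fold change was −0.74 ± 0.08 (edgeR, adjusted p = 4.19e-06), and by p lrata ranked 38 among all genes. In the authors' deposited table its log2 fold change was −0.72 in control and −0.75 in slincR morphants, from the same libraries. The call held in each of 22 alternative settings in either morphant, with a log2 fold change between −0.76 and −0.68 in control and between −0.82 and −0.67 in slincR morphants. Without ConMO_DMSO 4 it was −0.70 in control morphants (edgeR, adjusted p = 0.00575).

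The related storage genes lratb.1 and lratb.2, which are not among the 10, did not pass the test. For lratb.1 the mean TCDD response was 0.06 ± 0.12 on the log2 scale (edgeR, adjusted p = 0.878) at 12.7 to 16.1 CPM per group, and for lratb.2 it was −0.15 ± 0.21 (edgeR, adjusted p = 0.793) at 1.55 to 1.82 CPM per group.

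In bulk RNA from whole embryos, fewer cells of a type and less RNA per cell cannot be told apart. Mammalian LRAT is known from the retinal pigment epithelium and from the storage cells of the liver, so markers of both tissues are set beside lrata. The liver list was drawn up for the liver as a whole, and no list was drawn up for its storage cells. All 9 rows of the pigment epithelium list had a log2 fold change below 0 for TCDD in control morphants and 7 of 9 in slincR morphants, at medians of −0.16 and −0.21. By edgeR 0 of them passed in either, with 3 and 3 at an unadjusted p under 0.05, and by DESeq2 1 and 0 passed. Of all genes 49.9% and 50.6% were below 0, and 11.2% and 6.91% had an unadjusted p under 0.05 by edgeR. By edgeR 0.620% and 0.383% of all genes passed, and the counts of all genes by DESeq2 stand in the closing section. In the averaged response edgeR called 1 of 9 lower, RPE65 (ENSDARG00000007480), where it called 0.805% of all genes lower. There DESeq2 called 3 of the 9 lower, which were DCT, pmelb and this RPE65 row. Over all genes DESeq2 also called more than edgeR in that response, with its count, not split by direction, in the closing section. The summed level of the 9 pigment epithelium rows ranged from 897 to 1110 CPM in ConMO_DMSO and from 825 to 930 in ConMO_TCDD. In the slincR groups it ranged from 804 to 1014 and from 802 to 946 CPM. Of the 9 tested rows of the liver list, 8 and 7 were below 0. By edgeR 0 passed in either, with 3 and 1 at an unadjusted p under 0.05, and by DESeq2 0 and 1 passed. These liver counts are to be read against the same shares of all genes. In the averaged response 1 row of the liver list fell, tfa, which encodes transferrin, at −0.27 ± 0.06 on the log2 scale (edgeR, adjusted p = 0.0125). That call held in 21 of 21 alternative settings. The liver sum ranged from 2815 to 3667 CPM in ConMO_DMSO, 2771 to 3026 in ConMO_TCDD, 3308 to 4050 in slincRMO_DMSO and 2802 to 3606 in slincRMO_TCDD. No row of either list was at 0 in all samples, but the liver marker fabp10a had group means of only 1.09 to 1.60 CPM. Of the pigment epithelium rows 3 are named RPE65 and, like rlbp1b, also stand in a pathway list described further on. The same holds for TTR and RBP4 of the liver list. Reads of the marker rows can come from any cell of the whole embryo that expresses them, so neither list was shown to stand for its tissue alone. The part of either tissue in the change of lrata was not tested.

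The uptake gene stra6 encodes the membrane receptor for the plasma retinol carrier. It measured 38.6, 44.3, 38.6 and 46.7 CPM in ConMO_DMSO and 35.2, 30.5, 35.7 and 31.0 CPM in ConMO_TCDD. In slincR morphants it measured 43.6, 41.5, 43.1 and 41.0 CPM in DMSO and 44.2, 38.8, 41.6 and 41.1 CPM with TCDD. The control morphants with TCDD lay below all 12 other samples, whereas the slincR groups overlapped. Rows whose samples did not overlap numbered 2 of 11 in control morphants, lrata and stra6, where 5.58% of all genes had no overlap.

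For stra6, the log2 fold change for TCDD was −0.35 ± 0.09 (SE) in control morphants (edgeR, adjusted p = 0.0944) and −0.03 ± 0.09 in slincR morphants (edgeR, adjusted p = 0.993). Neither passed. Between the morpholinos it was 0.01 ± 0.09 in DMSO (edgeR, adjusted p = 0.99) and 0.32 ± 0.09 with TCDD (edgeR, adjusted p = 0.136), the second of which rests on the same 4 ConMO_TCDD libraries. The responses differed by 0.32 ± 0.13, with an interval from 0.05 to 0.58, an unadjusted p of 0.0216 by the edgeR test and an adjusted p of 1. With DESeq2 the adjusted p was 0.0211 for TCDD in control morphants and 0.0391 for the morpholino in TCDD, so that both calls depend on the test. Without ConMO_DMSO 4 the log2 fold change in control morphants was −0.29 (edgeR, adjusted p = 0.267).

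Of the synthesis genes, aldh1a3 encodes a retinaldehyde dehydrogenase that in vertebrates is known from the eye and the inner ear. It measured 8.54, 5.44, 7.11 and 6.23 CPM in ConMO_DMSO and 5.72, 3.96, 3.33 and 3.43 CPM in ConMO_TCDD. In slincR morphants it measured 6.73, 6.57, 4.88 and 6.36 CPM in DMSO and 4.48, 4.35, 5.44 and 3.70 CPM with TCDD. In each kind of morphant 1 TCDD sample lay above the lowest DMSO sample, so the groups overlapped. At 59 to 153 reads per sample it was the least counted of the 11 rows.

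The log2 fold change of aldh1a3 was −0.74 ± 0.20 (SE) in control morphants (edgeR, adjusted p = 0.103) and −0.45 ± 0.20 in slincR morphants (edgeR, adjusted p = 0.63), and neither passed. Averaged over both morphants it fell by 33.8%, a log2 fold change of −0.59 ± 0.14 with an interval from −0.88 to −0.31 (edgeR, adjusted p = 0.0204). In this average 3 of 11 rows passed, where 2.14% of all genes were called. The averaged call was lost without ConMO_DMSO 1, ConMO_TCDD 4 or slincRMO_DMSO 2, with adjusted p from 0.0517 to 0.0528, and held without ConMO_DMSO 4 (edgeR, adjusted p = 0.0221). In control morphants alone it passed with DESeq2 (adjusted p = 0.03), without ConMO_TCDD 1 (edgeR, adjusted p = 0.0415) and with a covariate for reads outside genes (edgeR, adjusted p = 0.0256). Of the 8 tested photoreceptor marker rows, 7 were below 0 for TCDD in control and 6 in slincR morphants, with sums of 225 to 292 CPM in ConMO_DMSO, 211 to 255 in ConMO_TCDD, 225 to 262 in slincRMO_DMSO and 239 to 272 in slincRMO_TCDD. No marker row was at 0 in all samples, and 0 of the 8 passed by edgeR or by DESeq2 in either morphant or in the average. At an unadjusted p under 0.05 by edgeR were 1, 0 and 1 of the 8, against 11.2%, 6.91% and 14.2% of all genes. Of all genes 49.9% were below 0 in control and 50.6% in slincR morphants. The lens crystallin gene crygm2d1, a marker of another part of the eye, comes from the check list of markers and not from an eye list. Of the 9 tested rows of that check list, it alone was called in the averaged response, where 2.14% of all genes were. It fell at −0.47 ± 0.08 on the log2 scale (edgeR, adjusted p = 0.00187), in 21 of 21 alternative settings. It measured 89.8 ± 14.9 CPM in ConMO_DMSO, 68.2 ± 8.70 in ConMO_TCDD, 76.7 ± 9.63 in slincRMO_DMSO and 52.7 ± 5.73 in slincRMO_TCDD (SD, n = 4). The part of these eye cells in the change of aldh1a3 was not tested.

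The other synthesis gene, aldh1a2, encodes the main retinaldehyde dehydrogenase of the early embryo, active in somites and trunk mesoderm. Its level was 36.8 ± 3.78 CPM in ConMO_DMSO, 34.4 ± 2.36 in ConMO_TCDD, 35.1 ± 4.31 in slincRMO_DMSO and 34.9 ± 2.48 in slincRMO_TCDD (SD, n = 4). The 4 means differed by less than the SD of the most variable group. Its mean TCDD response was −0.06 ± 0.07 on the log2 scale, with an interval from −0.21 to 0.10 (edgeR, adjusted p = 0.788). A change in aldh1a2 as large as that of lrata lies outside this interval.

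The rows named RDH10 stand for the enzyme that turns retinol into retinal. ENSDARG00000058730 measured 53.1 to 70.4 CPM over the 16 samples and ENSDARG00000012369 measured 6.89 to 11.4 CPM. Their mean TCDD responses were −0.07 ± 0.07 and −0.03 ± 0.10 on the log2 scale (edgeR, adjusted p = 0.66 and 0.917). In control morphants ENSDARG00000012369 had a log2 fold change of 0.00 ± 0.14, where the samples ran from 7.70 to 10.8 CPM in DMSO and from 6.89 to 9.62 with TCDD. Without ConMO_DMSO 4 this value was 0.12 and the mean response 0.02. Neither row passed in any contrast.

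The rows named DHRS3 encode retinal reductases, which retinoic acid is known to induce in embryos. ENSDARG00000044803 measured 17.4 to 25.8 CPM in ConMO_DMSO, 16.6 to 19.0 in ConMO_TCDD, 20.4 to 23.8 in slincRMO_DMSO and 19.3 to 21.9 in slincRMO_TCDD. With TCDD, its control morphant samples lay below all slincR morphant samples. The log2 fold change for the morpholino in TCDD was 0.22 ± 0.12 and did not pass (edgeR, adjusted p = 0.503). There, stra6 and this row were the 2 of 11 without overlap, against 7.66% of all genes. In control morphants its TCDD response was −0.24 ± 0.12 (edgeR, adjusted p = 0.439) and in slincR morphants −0.09 ± 0.11 (edgeR, adjusted p = 0.97). ENSDARG00000044982 measured 11.6 to 18.4 CPM over all samples, and its mean TCDD response was −0.06 ± 0.10 on the log2 scale (edgeR, adjusted p = 0.837). Without ConMO_DMSO 4 this was −0.01, and its log2 fold change in control morphants went from −0.05 to 0.05.

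Of the breakdown genes, cyp26b1 encodes a retinoic acid hydroxylase expressed in the hindbrain and in skeletal and fin tissue of zebrafish. It measured 52.9, 48.7, 62.4 and 57.0 CPM in ConMO_DMSO and 67.7, 75.1, 59.4 and 66.4 CPM in ConMO_TCDD. In slincR morphants it measured 56.7, 50.3, 48.9 and 56.0 CPM in DMSO and 60.3, 62.2, 70.1 and 55.9 CPM with TCDD. In each kind of morphant 3 of the 4 TCDD samples lay above all DMSO samples and 1 lay among them, so the groups overlapped.

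The log2 fold change of cyp26b1 was 0.28 ± 0.10 (SE) in control and 0.23 ± 0.10 in slincR morphants, which did not pass (edgeR, adjusted p = 0.239 and 0.612). Averaged over both it rose by 19.4%, a log2 fold change of 0.26 ± 0.07 with an interval from 0.11 to 0.40 (edgeR, adjusted p = 0.0498). It was the last of the 441 genes called in that average, and the call was lost under 15 of 21 alternative settings, with adjusted p up to 0.131. Reads outside genes made up 12.8% to 15.0% of entries in ConMO_DMSO, 13.4% to 16.1% in ConMO_TCDD, 13.1% to 15.2% in slincRMO_DMSO and 12.8% to 15.2% in slincRMO_TCDD. With this share in the fit the averaged log2 fold change was 0.19 (edgeR, adjusted p = 0.113), and without ConMO_DMSO 4 it was 0.26 (edgeR, adjusted p = 0.0578). The 6 hindbrain and somite marker rows summed to 88.2 to 99.4 CPM in ConMO_DMSO, 105 to 120 in ConMO_TCDD, 84.2 to 104 in slincRMO_DMSO and 99.1 to 105 in slincRMO_TCDD. The 9 pharyngeal arch and fin rows summed to 261 to 334, 299 to 307, 264 to 292 and 288 to 314 CPM in the same order. In the averaged response 3 of 6 and 4 of 9 of these rows were below 0, with list medians of 0.0005 and 0.06 on the log2 scale. At an unadjusted p under 0.05 by edgeR were 1 and 4 of them, against 14.2% of all genes. No row was at 0 in all samples. Among these rows HOXB4 and TBX5 also stand in the list of retinoic acid target genes described further on. The somite gene meox1 rose by 0.77 ± 0.10 on the log2 scale in that average (edgeR, adjusted p = 3.06e-05), and the mesenchyme gene PRRX1 (ENSDARG00000033971) by 0.32 ± 0.06 (edgeR, adjusted p = 0.00423), each in 21 of 21 alternative settings. They were the only rows of these lists called by edgeR in that average, where 2.14% of all genes were. The hindbrain and somite rows ran from −0.08 to 0.77 there, and the pharyngeal arch and fin rows from −0.47 to 0.43. By DESeq2 the averaged response had 1 hindbrain and somite row called higher, meox1, and 0 lower. Of the pharyngeal arch and fin rows it had 1 called higher, the same PRRX1 row, and 1 lower, DLX2 (ENSDARG00000017174). Over all genes DESeq2 called more than edgeR in that average, with its count in the closing section. The part of these tissues in the change of cyp26b1 was not tested.

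The other breakdown genes did not pass in any contrast. The gene cyp26a1, whose transcription retinoic acid is known to induce strongly, measured 8.37 to 12.7 CPM in ConMO_DMSO and 6.28 to 12.7 in ConMO_TCDD. In slincR morphants its level was 11.5 ± 0.414 CPM without TCDD and 9.50 ± 0.997 CPM with it (SD, n = 4), and the samples had no overlap, where 5.24% of all genes had none. Its log2 fold change there was −0.28 ± 0.17 and did not pass (edgeR, unadjusted p = 0.11), and its mean TCDD response was −0.22 ± 0.12, with an interval from −0.47 to 0.02 (edgeR, adjusted p = 0.405). The gene cyp26c1, expressed in the hindbrain, measured 30.5 ± 1.17 CPM in ConMO_DMSO, 27.7 ± 5.7 in ConMO_TCDD, 29.9 ± 3.05 in slincRMO_DMSO and 29.1 ± 2.07 in slincRMO_TCDD (SD, n = 4). Its mean TCDD response was −0.09 ± 0.08 on the log2 scale (edgeR, adjusted p = 0.682).

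Side by side, cyp26b1 had a TCDD log2 fold change above 0 and cyp26a1 and cyp26c1 had values below 0 in both morphants. None of the 3 breakdown genes passed in either morphant, and the intervals of cyp26a1 and cyp26c1 held 0 in both. Among all 11 rows, 9 had a log2 fold change below 0 in control morphants and 10 in slincR morphants, where 49.9% and 50.6% of all genes did. At an unadjusted p under 0.05 by edgeR, in either direction, were 5 of the 11 in control morphants, 3 in slincR morphants and 4 in the average. The shares of all genes were 11.2%, 6.91% and 14.2%. The median of the 11 was −0.14 in control morphants, −0.06 in slincR morphants and −0.09 for the average, and the median of all genes was 0.00 in each. Without ConMO_DMSO 4, 8 of 11 were below 0 in control morphants, with a median of −0.08, and the median for the average was −0.09.

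**Figure D2:**
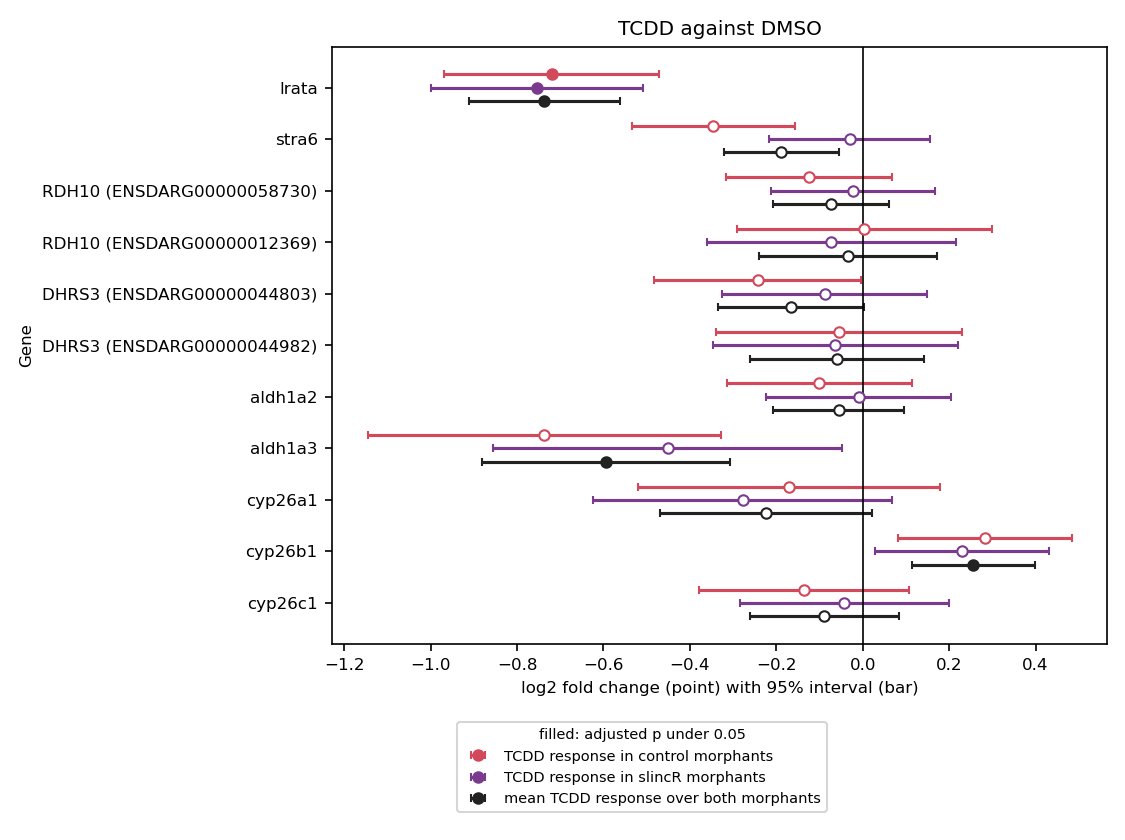
Log2 fold change of TCDD against DMSO (horizontal axis) with its 95% interval for each row, in control morphants, in slincR morphants and averaged over both. Filled points passed at an adjusted p under 0.05: lrata in all 3, and aldh1a3 and cyp26b1 in the average.

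For the slincR morpholino, the question is whether embryos given it differ in retinoid genes or in the response of these genes to TCDD. By edgeR, 0 of the 11 rows passed in DMSO, where 0.150% of all genes were called, and 0 passed in TCDD, where 0.446% were. At an unadjusted p under 0.05 by edgeR the counts were 0 in DMSO, where 9.11% of all genes were, and 1 in TCDD, where 10.8% were. That row was stra6. By DESeq2 0 and 1 passed at the adjusted p, again stra6. Over all genes DESeq2 called more than edgeR in both contrasts, with the counts in the closing section. In DMSO the log2 fold changes of the 11 rows ran from −0.15 for aldh1a3 to 0.20 for RDH10 ENSDARG00000012369, with a median of 0.01, and 0 rows had groups without overlap, against 4.16% of all genes. Without ConMO_DMSO 4 they ran from −0.19 for aldh1a3 to 0.32 for the same RDH10 row, with a median of 0.09 and an adjusted p of 0.616 for the latter by edgeR.

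No row passed the test for a difference between the TCDD responses of the 2 kinds of morphant. In that comparison 0 of all 20630 genes, or 0%, passed by edgeR and 0 by DESeq2. At an unadjusted p under 0.05 by edgeR were 617 genes, or 2.99%, and 1 of the 11 rows, stra6. The intervals show how large a difference the data leave room for: for lrata from −0.38 to 0.32 on the log2 scale, for aldh1a3 from −0.29 to 0.86, and for cyp26b1 from −0.34 to 0.23. The interval of stra6, from 0.05 to 0.58, did not hold 0.

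**Figure D3:**
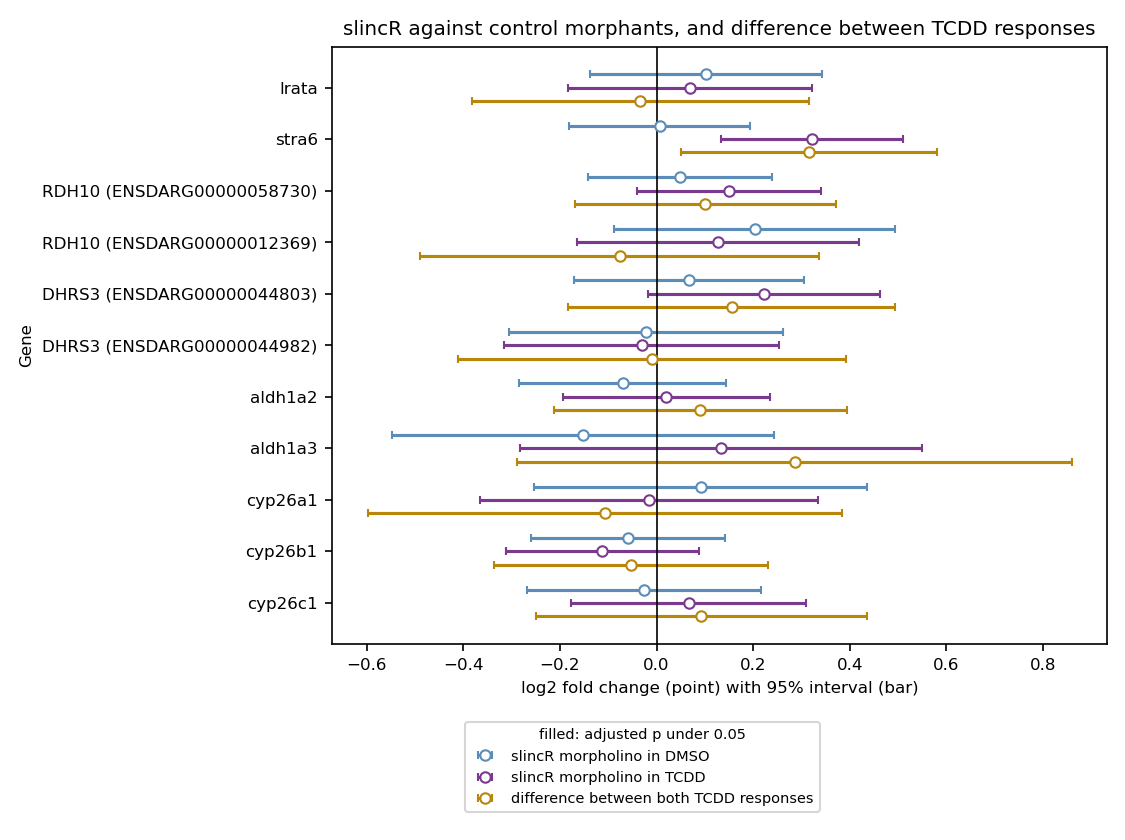
Log2 fold change of slincR against control morphants in DMSO and in TCDD, and the TCDD response in slincR morphants minus that in control morphants (horizontal axis), with 95% intervals for each row. No point is filled, since none passed at an adjusted p under 0.05, and the interval of stra6 lies above 0 in TCDD and for the difference.

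The genes around these enzymes were read from 4 wider lists. Over all genes, 11.2% had an unadjusted p under 0.05 by edgeR for TCDD in control morphants, 6.91% in slincR morphants and 14.2% in the average. For the morpholino the shares were 9.11% in DMSO and 10.8% in TCDD. Such counts of rows are to be read against these shares. The list of retinol and carotenoid enzymes had 31 tested rows of 35. By edgeR 1 of them rose and 0 fell in control morphants, with a median of −0.09, where 0.620% of all genes were called. The counts in slincR morphants were also 1 and 0, with a median of −0.06, where 0.383% were called. The gene that rose was cyp1b1, a monooxygenase of the AHR battery, which went from 10.1 ± 0.781 to 101 ± 9.51 CPM in control morphants and from 9.54 ± 2.36 to 95.1 ± 7.33 in slincR morphants (SD, n = 4). In the average over both morphants, cyp1b1 rose by 3.32 ± 0.09 on the log2 scale (edgeR, adjusted p = 2.81e-18) and the row RPE65 (ENSDARG00000007480) fell by 0.62 ± 0.16 (edgeR, adjusted p = 0.0393). RPE65 is the isomerase of the visual cycle, which takes its substrate from the esters that LRAT makes. This row measured 10.6 ± 2.43 CPM in ConMO_DMSO, 5.57 ± 1.08 in ConMO_TCDD, 11.2 ± 4.67 in slincRMO_DMSO and 9.03 ± 1.73 in slincRMO_TCDD (SD, n = 4), and its call was lost under 12 of 21 alternative settings. The other RPE65 rows, ENSDARG00000054420 and ENSDARG00000094752, had mean responses of 0.29 ± 0.30 and −0.11 ± 0.10 and did not pass (edgeR, adjusted p = 0.722 and 0.672). At an unadjusted p under 0.05 by edgeR, this list held 3 rows for TCDD in control morphants, 6 in slincR morphants and 8 in the average. For the morpholino it held 1 in DMSO and 3 in TCDD. By DESeq2 1 row rose and 1 fell for TCDD in control morphants, cyp1b1 and RPE65 (ENSDARG00000007480). The same rows were called in the average, and cyp1b1 alone in slincR morphants. Over all genes DESeq2 called more than edgeR in these contrasts, with the counts in the closing section.

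Of the list of retinoid carriers and uptake proteins, 17 of 21 rows were tested and 0 passed in any contrast. The smallest p was that of RBP2 (ENSDARG00000093774), a cellular retinol carrier, for the morpholino in DMSO, at −0.60 ± 0.16 on the log2 scale (edgeR, unadjusted p = 0.00129 and adjusted p = 0.232). Its group means were 12.5 ± 1.55 CPM in ConMO_DMSO, 9.05 ± 0.62 in ConMO_TCDD, 8.23 ± 1.41 in slincRMO_DMSO and 6.42 ± 1.5 in slincRMO_TCDD (SD, n = 4). At an unadjusted p under 0.05 by edgeR, this list held 2 rows for TCDD in control morphants, 2 in slincR morphants and 5 in the average. For the morpholino it held 3 in DMSO and 3 in TCDD. By DESeq2 1 row of the 17 passed, this RBP2 row, in the averaged TCDD response. Over all genes edgeR called 2.14% there and DESeq2 more, with its count in the closing section.

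All 15 rows of the receptor list, which holds the retinoic acid and retinoid X receptors with a few partners, were tested, and 0 passed in any contrast. The smallest p was that of RARG (ENSDARG00000054003), a retinoic acid receptor, for TCDD in control morphants, at 0.69 ± 0.23 on the log2 scale (edgeR, unadjusted p = 0.00597 and adjusted p = 0.22). It measured 4.22 ± 1.55 CPM in ConMO_DMSO and 6.84 ± 1.46 in ConMO_TCDD (SD, n = 4). The median of the 15 was 0.05 in control and 0.05 in slincR morphants, with 2 and 0 rows at an unadjusted p under 0.05 by edgeR. In the average 2 rows were, and for the morpholino 1 in DMSO and 1 in TCDD. By DESeq2 0 passed in any contrast.

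The list of retinoic acid target genes, which holds Hox, Meis and other patterning genes, had 52 tested rows. In control morphants 0 passed and 3 had an unadjusted p under 0.05, and in slincR morphants 0 passed and 2 did, with medians of −0.01 and 0.01, by edgeR. DESeq2 called 0 in either. At an unadjusted p under 0.05 by edgeR were also 10 of the 52 in the average, and for the morpholino 3 in DMSO and 7 in TCDD. In the average over both morphants 1 of 52 fell, against 0.805% of all genes called lower, and 0 rose. This was FOXC1, a transcription factor gene of cranial mesenchyme, at −0.28 ± 0.07 on the log2 scale (edgeR, adjusted p = 0.0455), and its call was lost under 14 of 21 alternative settings. The pathway plot sets the 11 rows beside these lists.

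**Figure D4:**
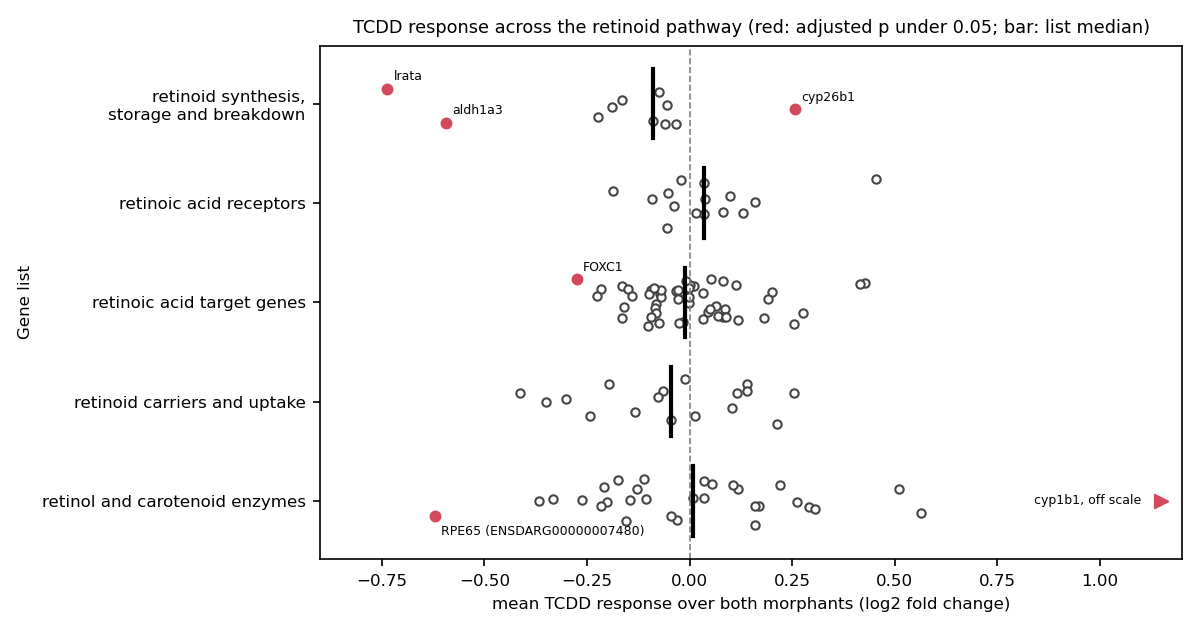
Mean TCDD response over both morphants (horizontal axis, log2 fold change) for each tested row (points) of the 11 rows and of 4 wider lists, with the list median as a black bar and calls at an adjusted p under 0.05 in red. The gene cyp1b1, at 3.32, lies off the scale, and no row of the receptor or carrier lists is red.

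Genes whose levels went most like those of the called rows over the 16 samples were found by Pearson's r of log2 CPM among 15884 named genes. For lrata these were jun, a subunit gene of the transcription factor AP-1, at r = 0.96, the fatty acid binding protein gene fabp11b at 0.93 and ponzr4 at 0.92. For aldh1a3 they were MRC1 at 0.83, BRD1 at 0.82 and inka1a at 0.80. For cyp26b1 they were NUAK1 at 0.91, CRABP2 (ENSDARG00000073978), a cellular retinoic acid carrier, at 0.91, and TFAP2C at 0.89. The 16 points share the 4 groups and each library's composition, so these values are a description only. The CRABP2 row had a mean TCDD response of 0.21 ± 0.07 on the log2 scale and did not pass (edgeR, adjusted p = 0.0975).

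**Figure D5:**
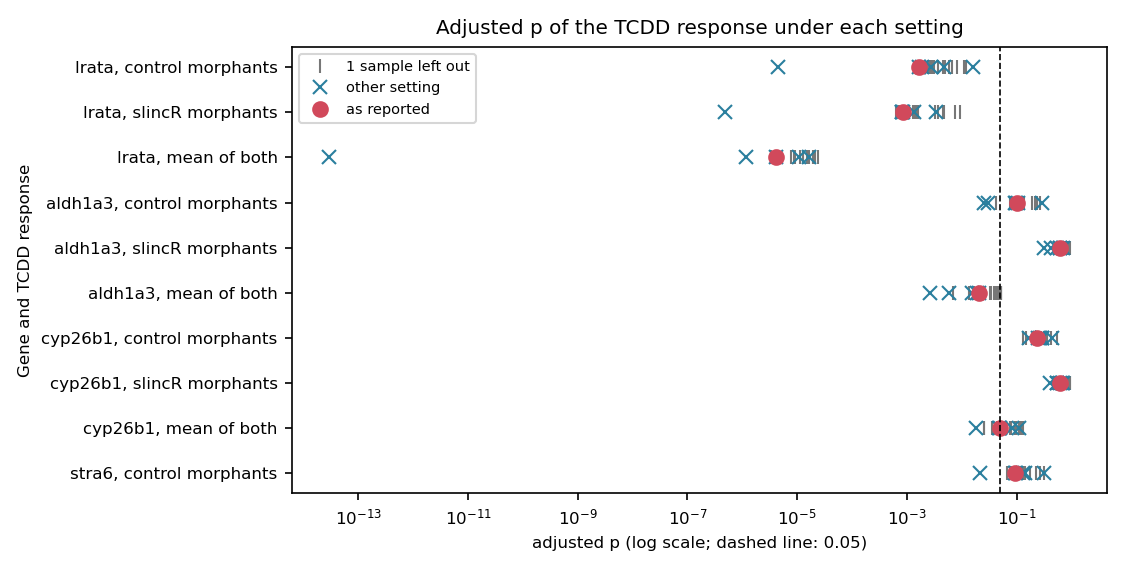
Adjusted p (horizontal axis, log scale) of the TCDD response of lrata, aldh1a3, cyp26b1 and stra6 as reported (circle), with each of 16 samples left out (ticks) and under the other settings (crosses), with a dashed line at 0.05. All marks of lrata lie left of the line, while those of cyp26b1 for the mean of both morphants lie on both sides of it.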

How the data were processed

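RNA was sequenced from whole embryos after poly-A selection, as paired reads of 150 bp. The authors deposited raw counts per Ensembl gene, made with TopHat and HTSeq on GRCz10 per the submitters' processing notes, whose other tools are FastQC, SAMtools and edgeR. Versions, annotation release and the strand setting were not given in sources used here. Reads of a gene and of one overlapping it can therefore be mixed, and paralogs can lose reads that align to several places. Reads in no gene (12.78% to 16.06% of entries), aligned to more than 1 place (24.44% to 29.35%) or ambiguous (0.27% to 0.33%) were left out. The authors' deposited lists of called genes gave the symbol lrata and its log2 fold change, and they hold the authors' p-values, which were not used as tests. Their enrichment tables were not used.

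From these counts, filterByExpr (minimum count 10) kept 20630 genes. edgeR 4.0.16 in R 4.3.3 fitted group means to all 16 samples with TMM scaling and a quasi-likelihood test, with a biological coefficient of variation of 14% on 12 residual degrees of freedom. Genes passed at a Benjamini-Hochberg adjusted p under 0.05 over all genes of a contrast. The SE is the log2 fold change divided by the square root of F, and 95% intervals use the test's degrees of freedom. The mean TCDD response is the average of both log2 fold changes. DESeq2 1.42.0 and the other alternatives are in the closing section, and the fits were tested on simulated data. All 11 rows were described, and from the wider lists genes past the threshold, or else the smallest p, were named, with the 3 genes of highest r per called row. Of 123 symbols in the wider lists 113 matched, 51 of them by an upper-case name without the paralog letter. The list of retinoic acid target genes stands without 1 gene that is not reported here, taken off after its values were seen, and its counts and median were recomputed without it. Members, lists and tests were chosen with earlier results of these data known. Same-numbered samples of different groups had correlated deviations of −0.18 to 0.13, so the numbers were not taken as pairs. No replicate pair agreed within counting noise. No sequence was read, since the reference tables used here hold names alone.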

Additional observations from a re-analysis of the deposited data

How the results depend on the processing

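Of 1430 values of the 11 rows recomputed under 22 alternative settings, 1407 kept their side of the threshold, 18 lost a call and 5 gained one, and the called results kept their sign in all 107 values. The 18 lost calls were 15 of cyp26b1 and 3 of aldh1a3, all in the mean TCDD response. With the replicate number as a block, genes called were 108 and 86 for TCDD in control and slincR morphants, 30 and 109 for the morpholino in DMSO and TCDD, 397 for the mean TCDD response and 0 for the difference. The rows called under the block were 2 in the mean response, where cyp26b1 was lost (edgeR, adjusted p = 0.0823), and in other contrasts as many as without it. By number, 5 of the 16 samples correlated best with their own.

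Counts over all genes moved more. In place of 128 (control) and 79 (slincR) for TCDD, 31 (DMSO) and 92 (TCDD) for the morpholino and 441 for the mean response, DESeq2 called 275, 165, 97, 244 and 721. Its split in slincR morphants was 117 higher and 48 lower, against 64 and 15, and for the morpholino 33 and 64 in DMSO, against 4 and 27, and 76 and 168 in TCDD, against 17 and 75. With a covariate for reads outside genes the counts were 283, 130, 99, 286 and 717, and with the 8 samples compared alone 69, 125, 17 and 180. Without the filter on low counts the morpholino in DMSO had 54. Rows called for TCDD in control morphants were 3 with DESeq2 and 2 with the covariate, in place of 1, and for the morpholino in TCDD 1 with DESeq2, in place of 0. Leaving out 1 sample gave 70 to 155 and 61 to 114 genes for TCDD in control and slincR morphants, 17 to 52 and 22 to 115 for the morpholino in DMSO and TCDD, and 296 to 534 for the mean response. The counts of rows then ran from 1 to 2 for control morphants and from 1 to 3 for the mean. The samples that moved a count of genes by more than 1.5 times were ConMO_TCDD 1, 2 and 4 (71, 70 and 78) for TCDD in control morphants, ConMO_DMSO 2, slincRMO_DMSO 2 and slincRMO_DMSO 3 (52, 20 and 17) for the morpholino in DMSO, and ConMO_TCDD 1, 2 and 3 (39, 59 and 43) and slincRMO_TCDD 1, 2 and 4 (32, 22 and 45) for it in TCDD. The cause was not tested. Of the 11 rows aldh1a3 had the fewest reads, 59 to 153 per sample.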
